A study of Mus musculus with 16 samples.

Results

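Nuclear receptors are transcription factors that bind a small lipophilic ligand, or none that is known, and act on genes that carry their response elements. The nuclear receptor genes described here were gene names of the array that follow the Nr0 to Nr6 nomenclature, together with the 3 PPARs, the 3 retinoid X receptors (RXRs), the 3 retinoic acid receptors (RARs), Rora and Rorb of the RORs, both thyroid hormone receptors and the vitamin D receptor. Nr1h4 and Nr5a2 were left out. The names alone chose the members, not their signals. This gave 37 of the 30214 gene names on the array, of which 20 had 1 probe and 17 had more. They were followed in AML12 cells, a line of mouse hepatocytes that keeps some hepatocyte functions in culture. All cells carried an shRNA that doxycycline switches on, were given doxycycline, and were stimulated for 1 h with 100 nM insulin. Growth medium held dexamethasone, a synthetic glucocorticoid, and added insulin. The control shRNA had a scrambled sequence and the other shRNA targeted eIF6, an initiation factor that keeps the large ribosomal subunit apart from the small one until it is released. Lysates were run on sucrose gradients, and RNA of polysomes and of the lighter, subpolysomal part of the gradient was hybridised to separate 1-colour arrays. There were 4 arrays of each of the 4 groups (scramble subpolysomal, scramble polysomal, eIF6 shRNA subpolysomal and eIF6 shRNA polysomal). The stated purpose was to describe the messages on polysomes after insulin, and the comparison of shRNAs asked how they differ when eIF6 is low. No group without insulin or doxycycline was analysed here.

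In liver these receptors link lipids, hormones and daily rhythm to metabolism. PPARs answer fatty acids, LXRs (Nr1h2 and Nr1h3) oxysterols, RARs retinoic acid and the vitamin D receptor its vitamin, mostly as partners of an RXR. CAR (Nr1i3) and PXR (Nr1i2) raise enzymes and pumps that clear drugs. RORs and REV-ERBs (Nr1d1 and Nr1d2) bind the same elements with opposite effect and connect the circadian clock to lipid genes, while the NR4A receptors are immediate early genes that rise within minutes of a stimulus without a known ligand.

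A pair of promoters is shown because Rarb rose and Nr4a1 fell in both gradient fractions, and each window holds a repeated element. Each window holds the 250 bases before an annotated start in RefSeq, build GRCm38.p6, and 34 of the 37 members had such a window. Rarb lies on the minus strand at chr14:16575477-16575726, and the capitals mark GTTCA, 6 bases of any kind and GTTCA again, the direct repeat through which RARs are known to raise this gene. Nr4a1 lies on the plus strand at chr15:101266596-101266845, and its capitals mark each TGCGTCA, a letter run close to the element of the cyclic AMP responsive factors.
Rarb: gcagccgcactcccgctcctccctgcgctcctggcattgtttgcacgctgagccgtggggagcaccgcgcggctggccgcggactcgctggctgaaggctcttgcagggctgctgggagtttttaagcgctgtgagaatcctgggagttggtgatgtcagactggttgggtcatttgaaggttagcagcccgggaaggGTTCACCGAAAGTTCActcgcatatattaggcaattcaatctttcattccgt
Nr4a1: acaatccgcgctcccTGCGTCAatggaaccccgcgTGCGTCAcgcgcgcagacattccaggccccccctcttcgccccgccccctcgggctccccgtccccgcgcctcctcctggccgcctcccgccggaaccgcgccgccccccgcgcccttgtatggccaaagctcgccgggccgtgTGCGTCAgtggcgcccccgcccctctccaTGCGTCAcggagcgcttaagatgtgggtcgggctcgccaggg
Both strands were searched, and the motifs do not overlap each other in these windows. The direct repeat occurred in 22 of 32817 windows of that length (0.067%), and among members only in Rarb, where it ended 36 bases before the start. TGCGTCA occurred in 572 windows (1.74%), and among members only in Nr4a1. It was chosen after the window had been read, and 1 window of the whole table held 4 or more copies. The full cyclic AMP element TGACGTCA was in 1.55% of windows and, of the members, in Nr2e1. AGGTCA, the hexamer that most of these receptors bind, was in 14.0% of all windows and in 9 of the 48 windows of members. These 9 windows belong to 8 of the 34 members. A match is a run of letters and was not tested as a binding site.

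Signals are log2 intensities after quantile normalization over all arrays, so they rank a message within its array and are compared between arrays, never between probes. The arrays had between 20177 and 24953 of 39429 probes well above background. Eif6, the target of the shRNA, had log2 signals of 12.96, 12.94, 12.96 and 12.94 on the scramble polysomal arrays and of 11.92, 12.00, 11.85 and 11.81 on the eIF6 shRNA polysomal arrays. It was 2.08-fold lower there (95% interval 1.85 to 2.33, adjusted p = 1.46e-07 by limma). In subpolysomal RNA its signals were 11.53, 11.55, 11.65 and 11.66 with scramble and 11.73, 11.49, 11.74 and 11.50 with the eIF6 shRNA, a difference of 0.02 (adjusted p = 0.917), so the labels were borne out in the polysomal RNA only. Of 9 hepatocyte markers on the array, Hnf4a, Ttr, Apob, Serpina1a, Krt8 and Krt18 were well above background on all 16 arrays, while Alb reached that level on 7 arrays, Apoa1 on 2 and Fgb on none. With the eIF6 shRNA, 1 of 8 tested was called higher in polysomal and 1 in subpolysomal RNA, and none lower. Of all genes 11.1% and 11.9% were higher. Of 6 mesenchymal markers, all on all arrays, 5 fell in both fractions (Col1a1, Col1a2, Pdgfrb, Acta2 and Thy1), and the median polysomal difference of all 6 was -2.91. The summed signal of the 6 probes ran from 169970 to 281510 on scramble polysomal arrays against 28725 to 44997 with the eIF6 shRNA, and from 133680 to 143060 against 61035 to 74586 in subpolysomal RNA. Whether these markers have a part in the receptor differences below was not tested, and in bulk RNA fewer cells of a type and less RNA per cell cannot be told apart. Of 4 macrophage markers 1 fell (Csf1r, -1.67 in polysomal and -1.17 in subpolysomal RNA), and of 4 bile duct and 2 tested endothelial markers none was called. The endothelial markers Cdh5 and Tek were on no array.

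Most of the family was detected. In scramble subpolysomal RNA 27 of the 37 members were well above background on all 4 arrays, 4 on some and 6 on none. Scramble polysomal RNA gave 28, 4 and 5, eIF6 shRNA subpolysomal RNA 29, 3 and 5, and eIF6 shRNA polysomal RNA 28, 3 and 6. Over all 16 arrays, 26 members were detected on each and 5 on none. Those not detected were Nr0b1 and Nr2e3, known from adrenal and photoreceptor development, the forebrain receptor Nr2e1, the lanosterol-responsive Nr1h5 and the third NR4A receptor, Nr4a3. Between these limits stood Rarb and the mineralocorticoid receptor Nr3c2 with 15 arrays, CAR (Nr1i3) with 12, the corepressor SHP (Nr0b2) with 8, the germ cell receptor Nr6a1 with 6 and PXR (Nr1i2) with 4. CAR was seen on all 8 subpolysomal arrays and on 2 of 4 arrays in each polysomal group. The steroidogenic receptor Nr5a1, which hepatocytes are not known for, was well above background on all arrays through its only probe.

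Of the 37 members, 32 passed the filter on dim probes and were tested. With the eIF6 shRNA, 6 fell and 5 rose in polysomal RNA, while 10.7% and 11.1% of the 19365 genes tested did so. In subpolysomal RNA 7 fell and 3 rose, against 12.4% and 11.9% of all genes. The median difference of the 32 was 0.06 in polysomal and -0.09 in subpolysomal RNA, beside 0.02 for all genes in each. Among the called members 5 fell in both fractions (Vdr, Nr2f1, Nr4a1, Pparg and Rarg) and 3 rose in both (Rarb, Rora and Rorb). Nr1i2, Nr2c1 and Ppara were called in polysomal RNA alone, Nr4a2 and Nr2f2 in subpolysomal RNA alone, and no member was called in opposite directions. Nr1i2 passed the filter only through the scramble polysomal arrays, where it was high, so its place among the 6 that fell depends on that filter. The other 19 were called in neither. Scaling to the spike-in probes moved the median of all genes to -0.47 in polysomal and -0.23 in subpolysomal RNA, and turned the polysomal differences of Ppara (-0.20), Nr2c1 (-0.09) and Rorb (-0.00115) below 0. Relative to that median they stood at 0.28, 0.39 and 0.47. With this scaling Vdr and Nr1i2 were still called lower and Rarb higher in polysomal RNA. The polysomal calls of Nr2f1, Nr4a1, Pparg, Rarg and Rora ended with their directions kept (adjusted p from 0.364 to 0.651), and every subpolysomal call ended, with adjusted p = 0.0878 for Rarb, 0.272 for Vdr and 0.569 for Nr2f1 and 0.999 for the rest.

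**Figure D1:**
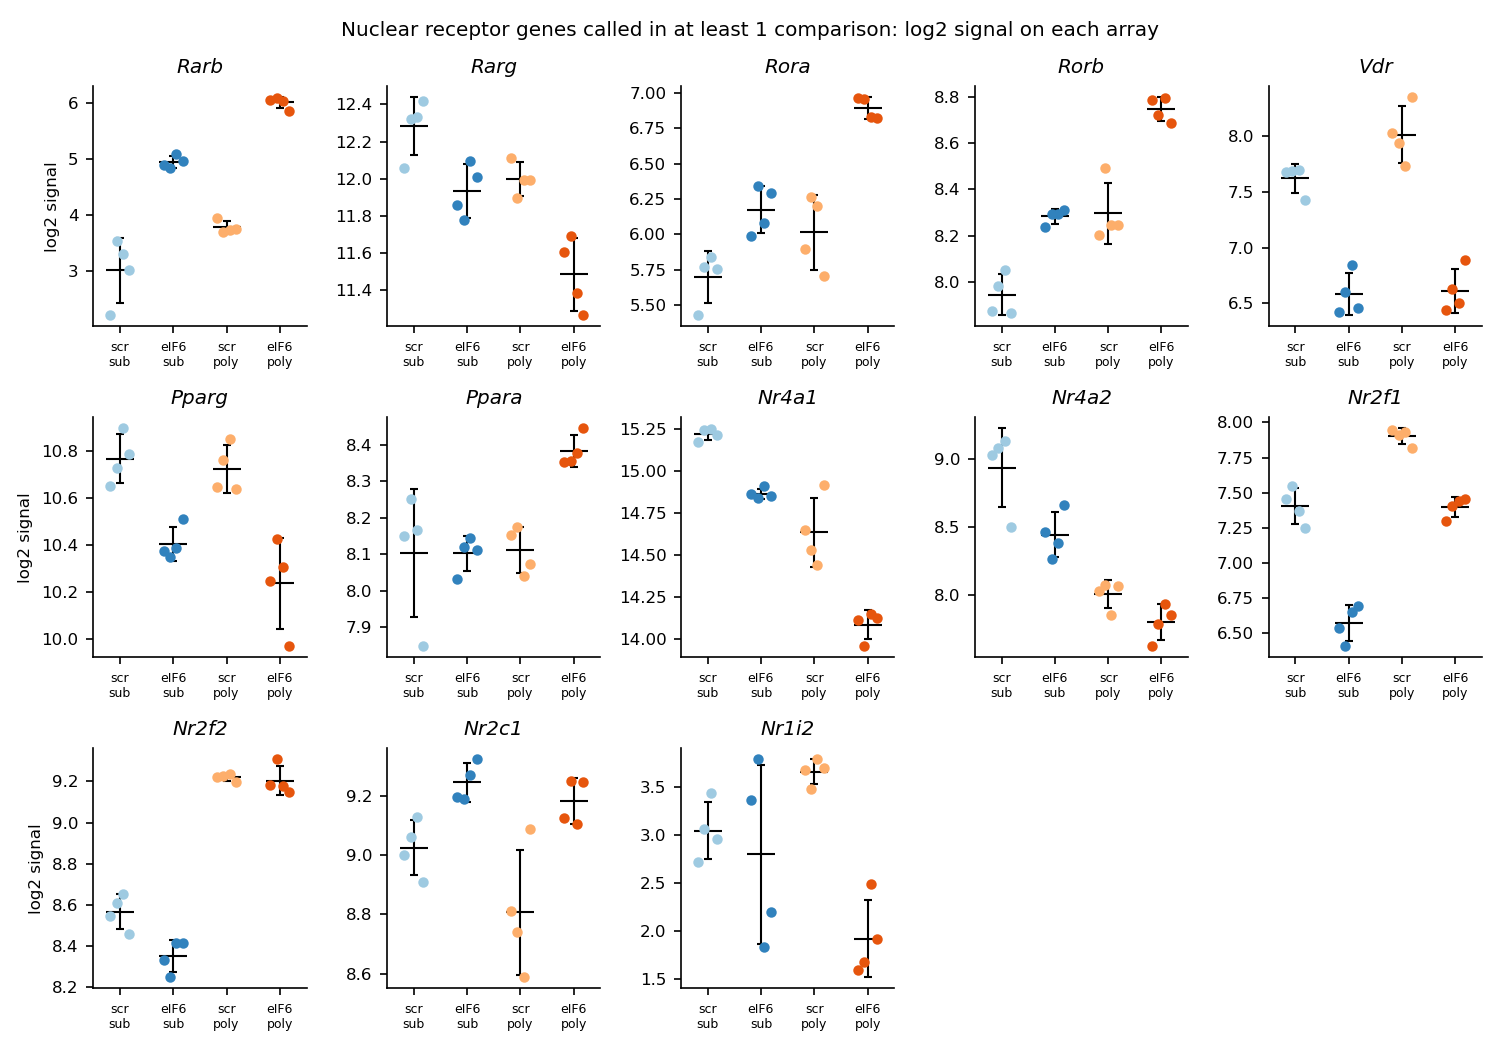
Log2 signal (y axis) of the 13 members called in at least 1 fraction, on each of the 4 arrays per group (points; scr is scramble, eIF6 the eIF6 shRNA, sub and poly the gradient parts), with the group mean and SD in black. Rarb and Vdr are among the members that separate the shRNAs in both fractions. Nr1i2 was well above background on 4 of the 16 arrays.

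**Figure D2:**
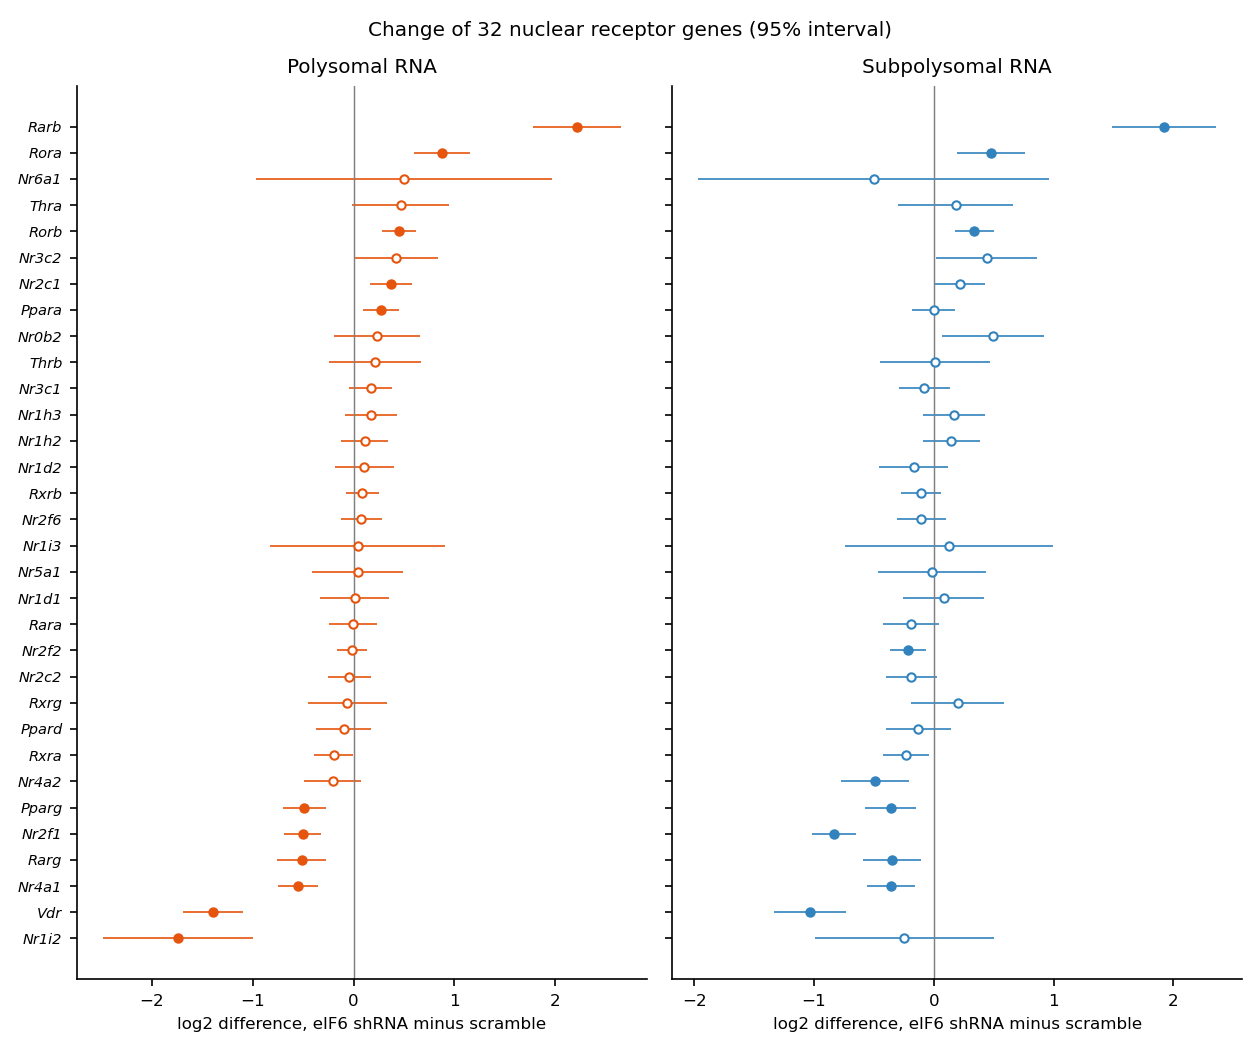
Log2 difference between eIF6 shRNA and scramble cells (x axes) with its 95% interval for the 32 members tested, in polysomal (left) and subpolysomal RNA (right), filled where the adjusted p was under 0.05. The members called in both panels, 3 above and 5 below 0, lie on the same side of 0 in each. Among them are Rarb at the top and Vdr near the bottom.

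Retinoic acid receptors moved apart from each other. Rarb, which retinoic acid itself induces, had the largest rise among the members, and Rarg, the RAR of skin and cartilage, fell, while the broadly expressed Rara was not called. Polysomal log2 signals of Rarb were 3.96, 3.71, 3.73 and 3.76 with scramble and 6.04, 6.08, 6.04 and 5.86 with the eIF6 shRNA. Subpolysomal signals were 2.22, 3.55, 3.30 and 3.03 with scramble and 4.89, 4.83, 5.08 and 4.97 with the eIF6 shRNA. All 4 eIF6 shRNA arrays lay above all 4 scramble arrays in each fraction, and the scramble subpolysomal array at 2.22 lay apart from its group. Rarb was 4.65-fold higher in polysomal RNA (95% interval 3.44 to 6.29, adjusted p = 1.20e-06). In subpolysomal RNA the mean of its kept probes was higher (adjusted p = 7.38e-06), with no exact fold given because 1 of them has only a bound there. Its brighter probe (chr14:17263367-17263426 in mm9, the build of the array file, minus strand) was well above background on 15 arrays and rose by 2.04 and 2.10 on the log2 scale. The dimmer probe (chr14:17264648-17264707) was on no scramble subpolysomal array, where its rise is known only as at least 1.41-fold, and another probe was on no array. With normexp background correction, which adds an offset to dim signals, the rises were 0.76 and 0.50 (adjusted p = 1.70e-09 and 2.87e-07), and with the undetected probe averaged in they were 1.31 and 1.09. The window printed above belongs to this gene.

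Rarg had polysomal signals of 12.11, 11.89, 11.99 and 11.99 with scramble and 11.60, 11.69, 11.38 and 11.26 with the eIF6 shRNA. The groups did not overlap, and Rarg was 1.43-fold lower (1.21 to 1.69, adjusted p = 0.00349). In subpolysomal RNA, scramble arrays gave 12.06, 12.32, 12.33 and 12.42 and eIF6 shRNA arrays 11.86, 11.77, 12.10 and 12.01, so that the groups overlapped. The 1.27-fold difference (adjusted p = 0.0347) was lost without any 1 of 5 arrays, scramble subpolysomal 2, 3 or 4 or eIF6 shRNA subpolysomal 1 or 2 (adjusted p from 0.078 to 0.103). That call was also lost with 75th percentile scaling (-0.30, adjusted p = 0.101) and without the filter on dim probes (adjusted p = 0.0538). Rara differed by -0.01 in polysomal and -0.19 in subpolysomal RNA. The RXRs, the shared partners of the family, had polysomal differences of -0.20 (Rxra), 0.09 (Rxrb) and -0.06 (Rxrg), and none was called. Both Rxra probes had differences between -0.28 and -0.18 in each fraction.

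Among 10 genes known as targets of retinoic acid receptors, Rarb included, 9 were tested. In polysomal RNA 3 fell and 4 rose, with a median of 0.09, where 10.7% of all genes fell and 11.1% rose. Stra6, the receptor through which cells take up retinol, rose by 1.52 in polysomal and 1.22 in subpolysomal RNA (adjusted p = 1.70e-06 and 2.08e-05). Dhrs3, which reduces retinaldehyde back to retinol, rose by 1.83 and 1.43 (adjusted p = 1.14e-08 and 2.10e-07). The chemokine Rarres2 fell by 1.93 in polysomal RNA (adjusted p = 0.000496), well above background on 4 scramble and 2 eIF6 shRNA polysomal arrays. The subpolysomal counts were 3 lower and 4 higher as well, where 12.4% of all genes fell and 11.9% rose. These shares also stand beside the subpolysomal counts of the lists below. Cyp26a1, whose promoter window also held the direct repeat, was detected on 2 arrays and not tested.

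Rora and Rorb both rose, but neither was called with spike-in scaling. Rora then stood at 0.45 in polysomal and 0.12 in subpolysomal RNA (adjusted p = 0.651 and 0.999). Rorb stood at -0.00115 and 0.02 (adjusted p = 0.999 for each). Relative to the median of all genes with that scaling, Rora stood at 0.93 and 0.35 and Rorb at 0.47 and 0.24. Rora, the ROR of cerebellum and liver, had polysomal signals of 5.89, 6.27, 6.20 and 5.70 with scramble and 6.96, 6.96, 6.83 and 6.82 with the eIF6 shRNA. The respective subpolysomal signals were 5.43, 5.77, 5.84 and 5.76 and 5.99, 6.34, 6.08 and 6.29. The shRNA groups stayed apart in both fractions, with a 1.84-fold rise in polysomal (1.51 to 2.23, adjusted p = 0.000156) and a 1.39-fold rise in subpolysomal RNA (1.15 to 1.69, adjusted p = 0.0157). The subpolysomal call was lost without scramble subpolysomal array 1 (difference 0.39, adjusted p = 0.0551) and with 75th percentile scaling (0.40, adjusted p = 0.0634). With normexp the rises were 0.48 and 0.20 (adjusted p = 3.81e-05 and 0.0301). Another Rora probe was on no array. With that probe averaged in, as when no filter on dim probes is used, the difference was 0.37 in polysomal RNA (adjusted p = 0.264) and -0.18 in subpolysomal RNA (adjusted p = 0.637).

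Rorb, best known from retina and cortex, had smaller but tight differences. Its polysomal signals were 8.21, 8.49, 8.25 and 8.25 with scramble and 8.78, 8.72, 8.80 and 8.69 with the eIF6 shRNA. Its subpolysomal signals were 7.88, 7.99, 8.05 and 7.87 and 8.24, 8.29, 8.29 and 8.31. Again the groups did not overlap, and both of its probes rose in each fraction. Rorb was 1.37-fold higher in polysomal (1.22 to 1.53, adjusted p = 0.000515) and 1.26-fold higher in subpolysomal RNA (1.13 to 1.42, adjusted p = 0.00489). The brighter probe alone gave a subpolysomal difference of 0.30 (adjusted p = 0.0549). The REV-ERBs, which oppose the RORs, were not called, with polysomal differences of 0.01 (Nr1d1) and 0.11 (Nr1d2). Nr1d1 overlaps the tail of Thra on the other strand.

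Of 9 genes known as targets of REV-ERBs and RORs, 6 were tested. In polysomal RNA 2 fell and 2 rose, beside 10.7% and 11.1% of all genes. Dbp, a clock output factor, rose by 1.29 in polysomal and 1.43 in subpolysomal RNA (adjusted p = 1.38e-07 and 8.50e-08). Cry2, a repressor of the clock, fell by 0.63 and 0.64 (adjusted p = 6.73e-05 and 7.11e-05). Arntl (BMAL1), which RORs raise and REV-ERBs lower, fell by 0.41 and 0.58 (adjusted p = 0.00319 and 0.000213), and its partner Clock rose by 0.54 in polysomal RNA (adjusted p = 0.0232). Whether the differences of Rora and Rorb have a part in those of Arntl and the other genes of this list was not tested.

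The vitamin D receptor Vdr, which hepatocytes are known to express at low level, showed the strongest fall among members detected on every array. Polysomal signals were 8.03, 7.94, 7.73 and 8.35 with scramble and 6.44, 6.63, 6.50 and 6.89 with the eIF6 shRNA. Subpolysomal signals were 7.67, 7.69, 7.69 and 7.43 with scramble and 6.42, 6.60, 6.85 and 6.46 with the eIF6 shRNA. The groups were clear of each other in both fractions, and on each of the 4 slides the eIF6 shRNA array was lower, by 1.14 to 1.72 in polysomal RNA. Vdr was 2.63-fold lower in polysomal (2.14 to 3.24, adjusted p = 2.82e-06) and 2.05-fold lower in subpolysomal RNA (1.67 to 2.52, adjusted p = 7.33e-05). With normexp the subpolysomal difference was -0.67 (adjusted p = 3.67e-05). Its single probe is at chr15:97685136-97685195 (mm9, minus strand).

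PXR (Nr1i2), the receptor of bile acids and drugs, was dim throughout. Its polysomal signals were 3.68, 3.48, 3.79 and 3.69 with scramble, on 3 arrays well above background, and 1.59, 1.68, 2.49 and 1.92 with the eIF6 shRNA, on none. Only a bound can therefore be given, at least 1.82-fold lower with the main background correction. This size depends on the background correction, since with normexp the log2 difference was -0.18, which is smaller than that bound. Nr1i2 passed the filter only through the scramble polysomal arrays, where it was high. Its call therefore depends on that filter, and no p-value is given for it. Its subpolysomal signals were 2.72, 3.06, 3.44 and 2.96 with scramble, on no array above background, and 3.37, 3.79, 1.84 and 2.20 with the eIF6 shRNA, on 1. No fold is given there. CAR (Nr1i3) differed by 0.04 in polysomal and 0.13 in subpolysomal RNA, with intervals from -0.83 to 0.91 and from -0.74 to 1.00.

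Of 15 genes known as CAR and PXR targets, 10 were tested, and 2 fell and 4 rose in polysomal RNA, beside 10.7% and 11.1% of all genes. Cyp2b10, the classical CAR target, was called higher and was well above background on 1 scramble and 4 eIF6 shRNA polysomal arrays. It passed the filter only through the eIF6 shRNA polysomal arrays, where it was high. Its call therefore depends on that filter, and neither an exact size nor a p-value is given. Cyp2c29, another drug-metabolising enzyme, rose by 1.66 (adjusted p = 0.000638), and the pump Abcc2 (MRP2) by 1.14 (adjusted p = 2.19e-06). Abcb1a, the drug pump P-glycoprotein, fell by 0.96 (adjusted p = 8.40e-06). In subpolysomal RNA 2 fell and 3 rose, and Cyp3a11, the classical PXR target, was on 3 arrays and not tested.

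The PPARs did not move as 1 group. Pparg, the regulator of fat cells, fell in both fractions, Ppara, which drives fatty acid oxidation in liver, rose in polysomal RNA (but stood at -0.20 with spike-in scaling), and the widely expressed Ppard was not called (differences of -0.10 and -0.13). Pparg signals in polysomal RNA were 10.65, 10.76, 10.85 and 10.64 with scramble and 10.25, 10.43, 10.31 and 9.97 with the eIF6 shRNA. In subpolysomal RNA they were 10.65, 10.73, 10.90 and 10.79 with scramble and 10.38, 10.35, 10.39 and 10.51 with the eIF6 shRNA. Neither fraction had overlapping groups. Pparg was 1.40-fold lower in polysomal (1.21 to 1.62, adjusted p = 0.00192) and 1.28-fold lower in subpolysomal RNA (1.11 to 1.49, adjusted p = 0.0146), the latter with an adjusted p of 0.0504 without scramble subpolysomal array 3.

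Ppara had polysomal signals of 8.15, 8.17, 8.04 and 8.07 with scramble and 8.35, 8.36, 8.38 and 8.45 with the eIF6 shRNA. The groups were separate, and Ppara was 1.21-fold higher (1.07 to 1.37, adjusted p = 0.0302), with rises of 0.25 to 0.29 on its 3 probes. The call was lost without any 1 of 5 arrays, scramble polysomal 1, 3 or 4 or eIF6 shRNA polysomal 3 or 4 (adjusted p from 0.0515 to 0.0756). Its subpolysomal signals of 8.15, 8.25, 8.17 and 7.85 with scramble and 8.03, 8.12, 8.14 and 8.11 with the eIF6 shRNA overlapped.

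Of 20 genes known as PPAR targets, 15 were tested, and 3 fell and 3 rose in polysomal RNA, beside 10.7% and 11.1% of all genes. Fabp4, the fatty acid binding protein of fat cells and macrophages and a target of Pparg, fell by 3.10 (adjusted p = 2.39e-06). It was well above background on 4 scramble and 2 eIF6 shRNA polysomal arrays. The liver transcription factor Creb3l3 fell by 1.39 (adjusted p = 4.86e-05) and the mitochondrial carrier Ucp2 by 1.29 (adjusted p = 0.000251). Acot1, an acyl-CoA thioesterase that Ppara induces, rose by 1.26 (adjusted p = 4.13e-06). The list's median was 0.31. Fgf21, Cyp4a14 and Fabp1 were on no array.

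Neither LXR was called. Nr1h2 differed by 0.11 in polysomal and 0.14 in subpolysomal RNA, and Nr1h3 by 0.17 in each. Of 12 genes known as LXR targets, 9 were tested, and 4 fell and none rose in polysomal RNA, where 10.7% of all genes fell. Lpl, lipoprotein lipase, fell by 1.66 (adjusted p = 0.000273). The cholesterol exporter Abca1 was well above background on 3 scramble polysomal arrays and on no eIF6 shRNA array, and so was at least 1.20-fold lower. Abca1 passed the filter only through the group where it was high. Its place among the 4 that fell therefore depends on that filter, and no p-value is given for it. Mylip, which degrades the LDL receptor, fell by 0.82 (adjusted p = 0.00113), and the phospholipid transfer protein Pltp by 0.55 (adjusted p = 0.0471). In subpolysomal RNA 1 fell and 1 rose. Thyroid hormone receptors were likewise not called, with polysomal differences of 0.47 for Thra (0.24 and 0.70 on its probes) and 0.22 for Thrb. Of 6 genes known as their targets, 4 were tested and 1 rose in polysomal RNA, where 11.1% of all genes rose. It was Bcl3, by 0.49 (adjusted p = 0.00871).

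Both NR4A receptors that were detected fell, Nr4a1 in each fraction and Nr4a2 in subpolysomal RNA. Nr4a1 (NUR77) had polysomal signals of 14.65, 14.53, 14.44 and 14.92 with scramble and 14.11, 13.95, 14.14 and 14.12 with the eIF6 shRNA. In subpolysomal RNA it had 15.17, 15.24, 15.25 and 15.22 against 14.86, 14.84, 14.91 and 14.85. The groups were apart in both, most tightly in subpolysomal RNA with SDs of 0.04 and 0.03 (n = 4 each). Nr4a1 was 1.46-fold lower in polysomal (1.28 to 1.68, adjusted p = 0.000408) and 1.28-fold lower in subpolysomal RNA (1.12 to 1.47, adjusted p = 0.0107). Its promoter window with 4 copies of TGCGTCA is printed above.

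Nr4a2 (NURR1), known from dopamine neurons and also an early response gene, gave subpolysomal signals of 9.03, 9.08, 9.13 and 8.50 with scramble and 8.47, 8.27, 8.39 and 8.66 with the eIF6 shRNA. Scramble array 4 lay inside the range of the other group. The fall was 1.40-fold (1.15 to 1.71, adjusted p = 0.0144), on both probes, by 0.47 and 0.51. Its polysomal signals were 8.03, 8.08, 7.86 and 8.07 with scramble and 7.63, 7.79, 7.93 and 7.86 with the eIF6 shRNA, a difference of -0.21 (adjusted p = 0.328).

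Other immediate early genes did not all share this direction. Of 10 in the list, all tested, 1 fell and 3 rose in polysomal RNA, beside 10.7% and 11.1% of all genes. Egr2 fell by 0.57 in polysomal and 0.75 in subpolysomal RNA (adjusted p = 6.12e-05 and 5.76e-06). Atf3, a stress-responsive factor, rose by 0.67 (adjusted p = 0.000911), Junb by 0.61 (adjusted p = 0.000470) and Fos by 0.24 (adjusted p = 0.0158). In subpolysomal RNA 1 fell and 1 rose.

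Of the COUP-TF group, orphan receptors that mostly repress, Nr2f1 fell in both fractions, Nr2f2 in subpolysomal RNA, and Nr2f6 was not called (0.08 and -0.11). Nr2f1 had polysomal signals of 7.95, 7.91, 7.93 and 7.82 with scramble and 7.30, 7.40, 7.44 and 7.46 with the eIF6 shRNA. Its subpolysomal signals were 7.46, 7.55, 7.37 and 7.25 with scramble and 6.54, 6.41, 6.65 and 6.70 with the eIF6 shRNA. The groups were separate in each, and the gap was wider in subpolysomal RNA, where Nr2f1 was 1.78-fold lower (1.57 to 2.02, adjusted p = 5.04e-06) against 1.42-fold in polysomal RNA (1.25 to 1.61, adjusted p = 0.000476). The difference between those changes did not pass the test after adjustment, as given with the translational efficiencies. The gap was on both probes (-0.54 and -0.46 in polysomal, -0.67 and -1.0 in subpolysomal RNA), and with normexp the subpolysomal difference of Nr2f1 was -0.53 (adjusted p = 5.42e-06).

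Nr2f2 had subpolysomal signals of 8.54, 8.61, 8.65 and 8.46 with scramble and 8.33, 8.25, 8.41 and 8.41 with the eIF6 shRNA, which did not overlap. The 1.16-fold fall (1.05 to 1.29, adjusted p = 0.0383) was lost without any 1 of 7 arrays, namely scramble subpolysomal 1, 2 or 3, scramble polysomal 1 or 2, and eIF6 shRNA subpolysomal 1 or 2 (adjusted p from 0.0521 to 0.119). Polysomal signals were 9.22, 9.23, 9.24 and 9.20 with scramble and 9.18, 9.31, 9.18 and 9.15 with the eIF6 shRNA, a difference of -0.02. The testicular receptor Nr2c1 had polysomal signals of 8.81, 8.74, 8.59 and 9.09 with scramble and 9.13, 9.25, 9.11 and 9.25 with the eIF6 shRNA. These groups just cleared each other, and Nr2c1 was 1.30-fold higher (1.12 to 1.5, adjusted p = 0.0113, but -0.09 on the log2 scale with spike-in scaling). In subpolysomal RNA it gave 9.0, 9.06, 9.13 and 8.91 against 9.20, 9.19, 9.27 and 9.32, a difference of 0.22 (adjusted p = 0.120, and 0.0445 without scramble polysomal array 4). Its relative Nr2c2 differed by -0.04 and -0.19.

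The steroid receptors and the remaining members were not called. The glucocorticoid receptor Nr3c1 differed by 0.17 in polysomal and -0.08 in subpolysomal RNA, and its 2 probes by 0.25 and 0.09 in polysomal RNA. Nr3c2 was higher by 0.42 and 0.44 (adjusted p = 0.153 and 0.120), SHP (Nr0b2) by 0.23 and 0.50 (adjusted p = 0.484 and 0.0865). Nr5a1 differed by 0.04 and -0.01, and the dim Nr6a1 by 0.50 and -0.50, with intervals from -0.96 to 1.97 and from -1.97 to 0.96. Of 16 genes known as glucocorticoid receptor targets, 15 were tested, and 2 fell and 5 rose in polysomal RNA, beside 10.7% and 11.1% of all genes. Hsd11b1, which regenerates active glucocorticoid, fell by 1.65 in polysomal RNA (adjusted p = 2.37e-07), with a subpolysomal difference of -0.0033 (adjusted p = 0.991). The amino acid enzyme Tat rose by 0.91 (adjusted p = 0.0217) and the anti-inflammatory Tsc22d3 by 0.45 (adjusted p = 0.0150), while the acute phase protein Lcn2 fell by 0.50 (adjusted p = 0.00185). In subpolysomal RNA 2 fell and 2 rose.

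Receptors that carry other names, and cofactors, were counted in the same way. Of 9 such receptors 6 were tested. In polysomal RNA none fell and Esrrb rose, by 0.55 (adjusted p = 0.00167), where 10.7% of all genes fell and 11.1% rose. Esrrb was also called higher in translational efficiency, the polysomal minus the subpolysomal change, by 0.74 (adjusted p = 0.0261), where 0.403% of all genes were higher. In subpolysomal RNA the estrogen receptor Esr2 fell by 0.42 (adjusted p = 0.0191) and none rose, where 12.4% of all genes fell and 11.9% rose. The liver regulator Hnf4a differed by -0.25 (adjusted p = 0.126) and -0.21. Of 26 coactivators and corepressors, 25 were tested, and in polysomal RNA none fell and 2 rose, where 11.1% of all genes rose. Ppargc1a (PGC-1 alpha), a coactivator of PPARs and other receptors in fasting, rose by 1.99 in polysomal and 0.95 in subpolysomal RNA (adjusted p = 1.40e-05 and 0.00769). On 1 of its probes no scramble polysomal array was well above background, and there the rise was at least 2.27-fold. The corepressor Ncor1 rose by 0.35 (adjusted p = 0.00457).

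**Figure D3:**
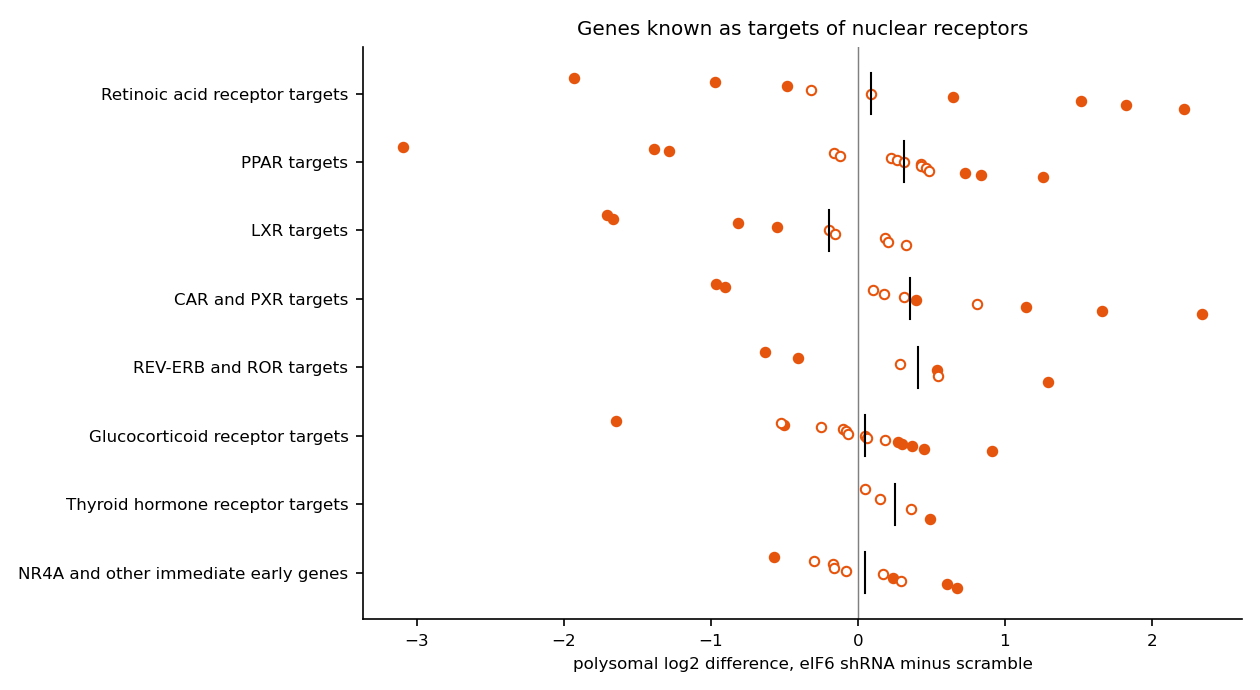
Polysomal log2 difference between eIF6 shRNA and scramble cells (x axis) of the tested genes known as targets of nuclear receptors, by list (y axis), filled where the adjusted p was under 0.05, with the list's median as a black bar. Most lists hold called genes on both sides of 0, and the LXR list holds them only below 0. Abca1 (LXR list) and Cyp2b10 (CAR and PXR list) passed the filter only through the group where they were high.

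Translational efficiency, polysomal over subpolysomal signal on the log2 scale, was compared between shRNAs as the difference of the polysomal and the subpolysomal change. No member was called, while 1.11% of all genes were lower and 0.403% higher. Esrrb was the only gene of the lists called higher. Called lower were 2 of 15 glucocorticoid receptor targets, 1 of 9 LXR targets and 3 of 6 mesenchymal markers tested. At an unadjusted p under 0.05 there were 4 of 32 (Nr2f1, Ppara, Rora and the dim Nr1i2), where 12.5% of all genes passed. Nr2f1 had a difference of 0.33 (95% interval 0.07 to 0.59, adjusted p = 0.247), Ppara of 0.27 (0.02 to 0.53, adjusted p = 0.353) and Rora of 0.40 (0.00 to 0.80, adjusted p = 0.395). Vdr lay at -0.36 (-0.78 to 0.06, adjusted p = 0.5) and Rarb at 0.30 (-0.32 to 0.91, adjusted p = 0.75). The median over members was 0.13, against 0.02 for all genes. With spike-in scaling these medians were -0.0967 and -0.215. For Nr1i2 no ratio is given, since its subpolysomal signals were near background. Eif6 itself had a difference of -1.07 (adjusted p = 0.000145).

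**Figure D4:**
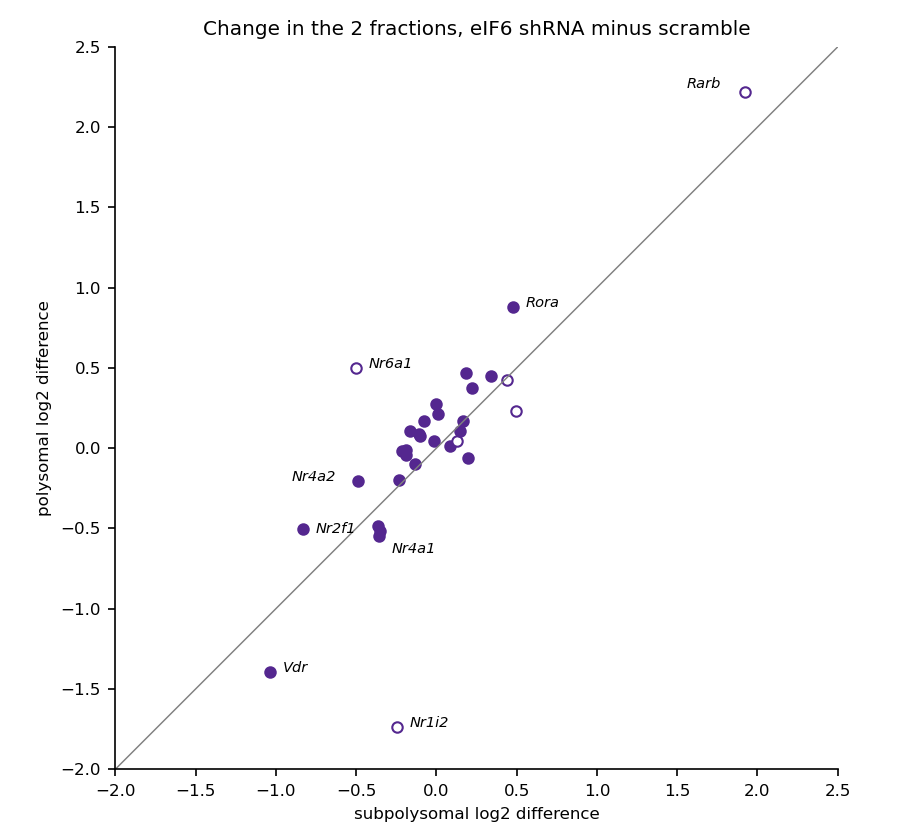
Subpolysomal (x axis) against polysomal (y axis) log2 difference between eIF6 shRNA and scramble cells for the 32 members, filled where a member was well above background on all 16 arrays, with the line of equal change. The dim Nr1i2, called in polysomal RNA, and the dim Nr6a1, not called, are farthest from the line.

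The 32 members also differed in how they were spread over the gradient in scramble cells. Relative to other genes, 11 had a lower and 12 a higher polysomal than subpolysomal signal, while 28.4% and 31.7% of all genes did. Thrb was the member with the highest ratio, with signals of 4.95, 5.08, 4.91 and 4.38 in subpolysomal and 6.26, 6.18, 5.97 and 5.99 in polysomal RNA (difference 1.27, adjusted p = 0.000116). Thra, the other thyroid hormone receptor, lay at the opposite side with 9.41, 9.28, 9.52 and 10.14 in subpolysomal and 8.44, 8.62, 8.89 and 7.95 in polysomal RNA (difference -1.11, adjusted p = 0.000590). The groups did not overlap for either gene. Nr1d1, the neighbour of Thra, was at 1.01 (adjusted p = 6.29e-05), Nr2c2 at 0.81 (adjusted p = 5.70e-06) and Nr2f2 at 0.66 (adjusted p = 1.43e-06). Nr4a2 and Nr4a1 were at -0.92 and -0.59 (adjusted p = 2.67e-05 and 6.07e-05). CAR (Nr1i3) had 5.17, 5.04, 5.01 and 4.97 in subpolysomal against 3.05, 4.37, 3.94 and 2.02 in polysomal RNA, well above background on 2 of the latter (difference -1.70, adjusted p = 0.00210). These positions are relative, because quantile normalization gives both fractions the same distribution. With spike-in scaling the median of all genes stood at 1.52 and, when polysomal and subpolysomal arrays were normalized apart, at 1.38. Of the members 27 and 29 were then higher and none lower, where 13414 and 15786 of 19365 genes were higher and 396 and 899 lower. With 75th percentile scaling 10 members were lower and 8 higher, where 7311 genes were lower and 4997 higher.

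**Figure D5:**
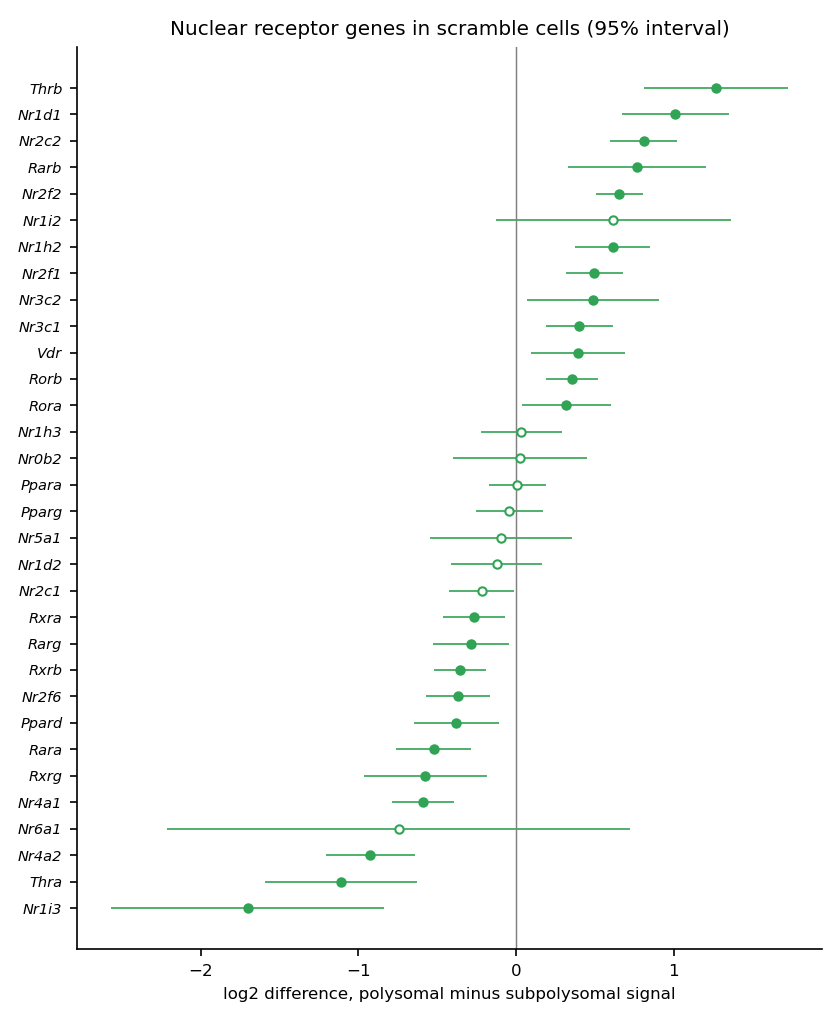
Polysomal minus subpolysomal log2 signal in scramble cells (x axis) with its 95% interval for the 32 members, filled where the adjusted p was under 0.05. Thrb and Nr1d1 lie at the polysomal end, and Nr1i3, Thra and Nr4a2 at the subpolysomal end.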

How the data were processed

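The 16 arrays came from 4 groups of 4, as the labels give them. The authors deposited scanner intensity values, background-corrected and not normalized between arrays, with flags per spot (other columns), and a log2 table quantile normalized over all arrays. The table's columns correlated with the arrays at r = 0.995 to 1. File headers name Feature Extraction 10.7.3.1, the labels 10.7.7.1. The insulin dose is 100 nM in the sample descriptions and methods, and the treatment text gives the same figure in mM. The labels speak of replicate experiments, and the study's methods call the 4 replicates biological.

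Outlier spots were dropped, spots of a probe averaged, and a probe was kept where 2 or more arrays of any group had it well above background. Log2 intensities of the 25260 kept probes were quantile normalized, and a gene was the mean of its kept probes. Limma 3.58.1 in R 4.3.3 fitted 4 group means over 19365 genes, with two-sided tests, Benjamini-Hochberg adjustment and a threshold of 0.05. Python 3.11.15 with pandas 2.3.3 searched the promoters, and matplotlib 3.10.9 plotted the figures. The fit was tested on simulated data. A probe not above background on any array of 1 group has only a bound, the bright group's mean against the mean of, per array, the higher of the probe's signal and the lowest signal well above background. Slides each held 1 array per group, and arrays of a slide deviated together at a median r of 0.13. Same-numbered replicates deviated together at a median r of -0.01 (-0.21 to 0.41), so numbers were not taken as pairs. Members with a call whose brightest probe was above background on 3 or more arrays of a group are given array by array, and lists by counts and at most the 4 called genes of largest polysomal change. List genes named as not detected were chosen after their detection was seen. The members, lists and target genes were chosen with earlier results of these data known. Alternatives are normalization, background correction, filters, brightest probe, the authors' table, blocks and leaving out each array. The number of arrays limits the precision. No spot was saturated and no arrays were identical. Some genes of the family and of the lists are not reported here.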

Additional observations from a re-analysis of the deposited data

Results flagged for a closer look

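Of 52 groups of 4 arrays (13 members in each group), 3 held an array whose gap to its nearest neighbour passed Dixon's 95% critical value, and chance flags about 1 in 20 groups. Nr4a2 was at 8.50 in scramble subpolysomal replicate 4, below the other arrays of that group, and Vdr was low in the same RNA at 7.43. Rorb was at 8.49 in scramble polysomal replicate 2, above its group. Without the array in question, each of these genes stayed called in that fraction.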

How the results depend on the processing

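For the 13 members described array by array, 984 of their values under the alternatives kept direction and side of the threshold, 41 were no longer past it, 2 newly passed, 13 that were not called changed sign, and 4 reversed. Spike-in scaling accounted for 3 of the reversals and 15 of the losses. It left 2 members lower and 1 higher in polysomal RNA, and 0 and 0 in subpolysomal RNA. In scramble polysomal against subpolysomal RNA it gave 0 members lower and 27 higher, where 396 of 19365 genes were lower and 13414 higher. Polysomal differences of Nr2c1 (-0.0864), Ppara (-0.20) and Rorb (-0.00115) reversed under it. Without the filter on dim probes Rora reversed in subpolysomal RNA (-0.18), because a probe on 0 arrays was averaged in. With each fraction normalized separately, 0 members were lower and 29 higher in scramble polysomal RNA, where 899 genes were lower and 15786 higher. With normexp background correction 1 member, Rarb, had a higher translational efficiency (0.26, adjusted p = 0.0255), and sizes of dim members shrank, as given beside them. The cause of the other differences was not tested. Leaving out each array gave 6 to 6 lower and 4 to 6 higher members in polysomal RNA, 4 to 7 and 2 to 4 in subpolysomal RNA, 0 to 0 for translational efficiency, and 9 to 11 and 10 to 12 in the scramble fractions. The 4 lower in subpolysomal RNA came without scramble subpolysomal replicate 3. The replicate block left 6 lower and 5 higher in polysomal and 5 and 3 in subpolysomal RNA, where Nr2f2 (adjusted p = 0.0599) and Rarg (adjusted p = 0.0647) were lost. With the slide as a block, 6 were lower and 5 higher in polysomal RNA, and 8 and 3 in subpolysomal RNA. Replicate numbers were not taken as pairs, since 3 of 16 arrays correlated best with their own number. A pairing too weak to show in these correlations is not excluded. Over all genes, translational efficiency calls, 214 lower and 78 higher, became 427 and 59 with 75th percentile scaling, 390 and 177 with normexp, 340 and 130 with separate fractions, and 31 and 2 with spike-in scaling. With spike-in scaling 1056 genes were lower and 101 higher in polysomal RNA, against 2073 and 2145, and 345 and 43 in subpolysomal RNA, against 2394 and 2295. Members near background limit what these arrays can show, among them Nr1i2, Nr6a1, Nr0b2 and Nr1i3.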
